A study of Mus musculus with 8 samples.

Results

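Sesn2 and Cpt1c were the only genes of a group of 10 metabolic p53 targets whose signal passed the test in the exposed mouse thyroid, and both were higher. The group holds the sestrins Sesn1, Sesn2 and Sesn3, TIGAR (named 9630033F20Rik on the array), Gls2, Pank1, Prkab1, Cpt1c, Aldh4a1 and Lpin1. Its members were chosen by name, with earlier results of these data known. Every array spot for mouse transcripts that carried one of these gene names was read. This gave 14 probes of 55681, and 10 genes of the 21021 that a RefSeq probe named. Of the 10 genes, 6 had 1 probe and 4 had 2. On all 8 arrays, 12 of the 14 probes were well above background.

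RNA was taken from the thyroids of 8 female Balb/c mice, which were 8 weeks old when obtained. In the exposed group (Tc; n = 4, animals S539, S588, S589 and S590), 99mTcO4- had been given and the dose absorbed by the thyroid was 30 Gy. 99mTcO4- is a technetium salt that emits low-energy electrons and enters thyroid cells through the Na/I symporter. RNA was collected 24 hours after administration. The control group (Ct; n = 4, numbered 1 to 4) had received no radioisotope, and was described in one place as untreated and in another as given saline. Neither group carried a genetic modification, and each array held the RNA of 1 thyroid, labelled in 1 colour, so that a brighter spot means more transcript bound by its probe.

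The tumour suppressor p53 is a transcription factor activated by DNA damage, best known for halting the cell cycle and for apoptosis. It also turns on genes of metabolism: the sestrins restrain the growth kinase complex mTORC1 and assist the energy sensor AMPK, TIGAR lowers glycolysis, and other targets act on glutamine, proline, coenzyme A and lipids. Several of these genes have other known regulators as well, such as the fasting factors PPAR alpha and FoxO, the stress factor ATF4 and glucocorticoids.

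Between 60.5% and 75.01% of spots were well above background on the control arrays and between 70.9% and 77.3% on the exposed arrays, and no spot was saturated. All 8 arrays were on 1 slide read on 1 day, with the exposed samples in row 1 and the controls in row 2, so position on the slide and exposure cannot be told apart. Control arrays 1 and 2 stood apart by thymocyte markers, whose summed signal over 8 genes was 43049 and 22529 on them, against 4056 and 4166 on controls 3 and 4 and 4536 to 6845 on the exposed arrays. Results that rest on these 2 arrays are therefore also given without them. Of 11 thyrocyte markers, 10 were well above background on all 8 arrays, and their summed signal, mostly thyroglobulin (Tg), was 510215 to 639777 on the control arrays and 478566 to 623177 on the exposed arrays. As a mean of log2 signals centred on each gene's mean, the thyrocyte score did not overlap, at -0.02 to 0.62 on the controls and -0.44 to -0.13 on the exposed arrays, with a median change of -0.36 and 2 of 11 markers above 0. The macrophage markers did not overlap either, with a summed signal over 8 genes of 18800 to 25632 on the controls and 14075 to 17643 on the exposed arrays and a median change of -0.42. The part of either cell type in the changes below was not tested. The only markers called were the thyrocyte deiodinase Dio1, at -2.46, and the macrophage receptor Cx3cr1, at -2.43, among lists for thyrocytes, skeletal muscle, adipocytes, neurons, thymocytes, macrophages and parathyroid and C cells. Outside the group, the p53 targets Cdkn1a, a cyclin-dependent kinase inhibitor, and Mdm2, the ubiquitin ligase of p53, were higher in exposed thyroids by 3.83 ± 0.30 and 2.32 ± 0.23 on the log2 scale (± SE, n = 4 per group; limma adjusted p = 0.0032 and 0.00714).

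The promoters of both genes that rose are shown first, as the 250 bases before the annotated start in RefSeq on GRCm38.p6, 5′ to 3′ on the strand of the gene. Below them stand both start sites of Sesn1, a sestrin that was not called. The letters come from the reference strain, not from these mice. Capitals mark CCAAT boxes (CCAAT or ATTGG), GC boxes (GGGCGG or CCGCCC) and, by name only, the p53 half-site, each searched on both strands.
Sesn2, chr4:132510457-132510706, minus strand: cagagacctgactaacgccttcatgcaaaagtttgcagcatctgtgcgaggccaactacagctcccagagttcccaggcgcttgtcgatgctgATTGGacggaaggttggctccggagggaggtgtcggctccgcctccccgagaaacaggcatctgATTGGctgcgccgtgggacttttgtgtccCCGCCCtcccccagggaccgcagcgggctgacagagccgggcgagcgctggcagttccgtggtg
Cpt1c, chr7:44974852-44975101, minus strand: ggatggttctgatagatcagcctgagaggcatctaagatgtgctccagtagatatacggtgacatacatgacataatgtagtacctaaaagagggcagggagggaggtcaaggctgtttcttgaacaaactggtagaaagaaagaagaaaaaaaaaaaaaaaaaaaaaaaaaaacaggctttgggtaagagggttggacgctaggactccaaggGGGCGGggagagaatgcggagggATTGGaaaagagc
Sesn1, first start, chr10:41810324-41810573, plus strand: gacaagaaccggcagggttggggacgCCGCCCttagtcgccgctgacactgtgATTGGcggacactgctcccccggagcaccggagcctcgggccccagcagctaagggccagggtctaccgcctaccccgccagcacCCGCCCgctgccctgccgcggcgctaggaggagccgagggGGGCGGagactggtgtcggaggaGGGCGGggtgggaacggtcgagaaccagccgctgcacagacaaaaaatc
Sesn1, second start, chr10:41887189-41887438, plus strand: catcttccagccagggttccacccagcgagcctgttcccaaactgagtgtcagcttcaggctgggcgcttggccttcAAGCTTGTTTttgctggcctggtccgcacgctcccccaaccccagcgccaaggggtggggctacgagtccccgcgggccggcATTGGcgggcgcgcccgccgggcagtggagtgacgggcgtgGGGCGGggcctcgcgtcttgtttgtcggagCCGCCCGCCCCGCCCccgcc

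Sesn2 had CCAAT boxes beginning 157 and 93 bases before its start and a GC box 64 bases before it. Cpt1c had both elements closer in, with a GC box 36 bases and a CCAAT box 13 bases before the start, and only 44% of its window was G or C, against a median of 52.4% over all windows. A p53 half-site was found in the second Sesn1 window, 173 bases before the start, and in no other window of the group. For the whole group, 9 of 10 genes matched the promoter table, with 11 windows. A CCAAT box was in 8 of the 11 and in 33.8% of the 32851 windows of all genes, a GC box in 6 and in 32.7%, a TATA box (TATAAA or TTTATA) in 1 and in 12.4%, and a p53 half-site in 1 and in 7.13%. GC boxes at 20, 16 and 11 bases in the second Sesn1 window overlap one another. These matches describe letters in a short window, and a p53 site further away or in an intron would not be seen by them.

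To ask which of the group changed with exposure, the log2 signal of each probe was compared between the 4 exposed and 4 control arrays with limma, and a probe was called where its p, adjusted by Benjamini-Hochberg over all 55681 probes, was below 0.05. Of the 14 probes, 3 were called, all higher in exposed thyroids. Over the whole array, 0.781% of probes were called, 0.587% higher and 0.194% lower. By the RefSeq probe of highest mean signal, hereafter the main probe, 2 of the 10 genes were called, against 1.2% of all genes. As the group was chosen with earlier results of these data known, these shares are a description and no test of the group. The other 8 genes were not called, with 5 changes above 0 and 3 below, from -0.72 to 0.64 on the log2 scale and with adjusted p from 0.315 to 0.764. The median change over the 10 genes was 0.32, beside -0.03 over all genes. The groups did not overlap for 3 of the 14 probes, the same 3 that were called, and for 9.11% of all probes. Without an adjustment, 4 of the 14 probes had a limma p under 0.05, the fourth being that of Gls2.

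**Figure D1:**
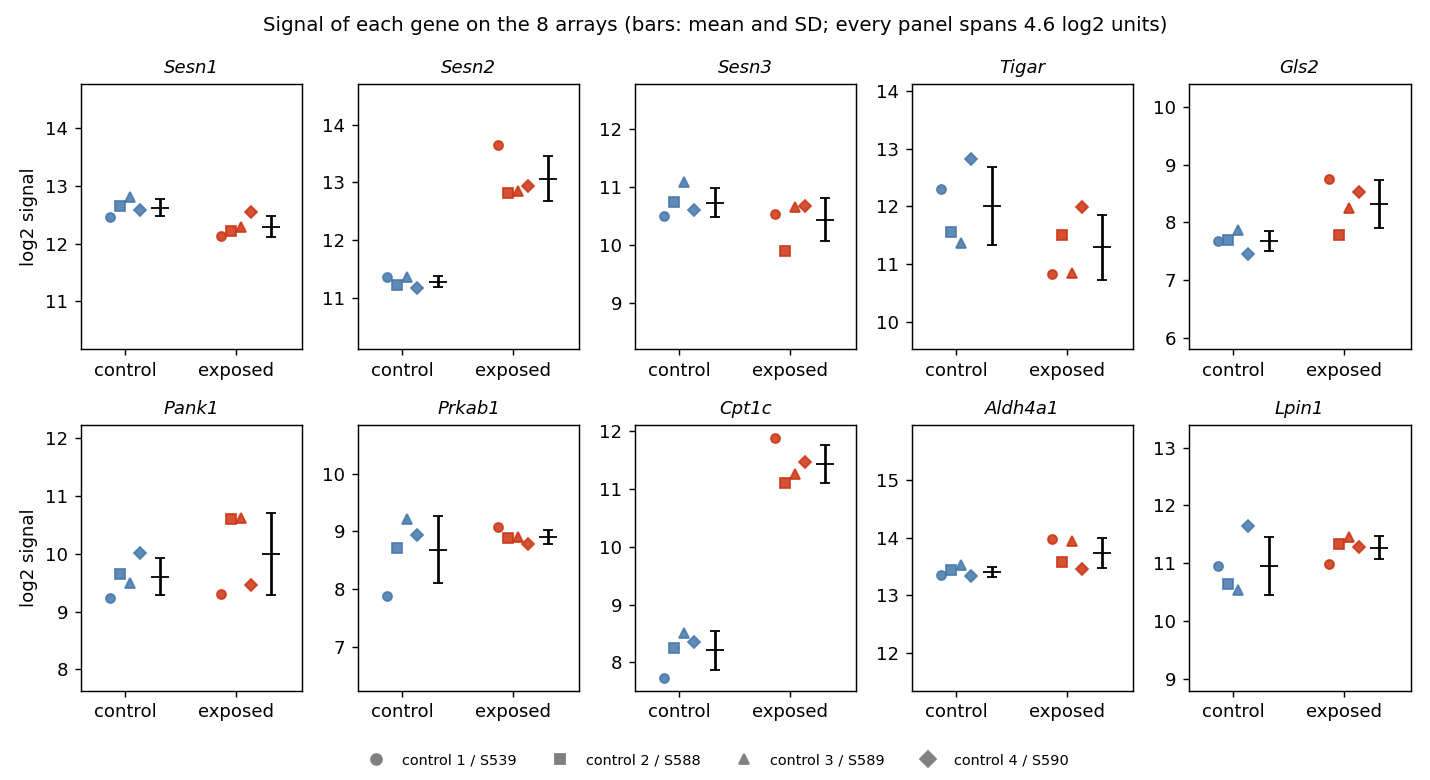
Log2 signal (vertical axis) of the main probe of each of the 10 genes on the 4 control arrays (blue) and the 4 exposed arrays (red), with the mean and SD of each group; the marker shapes only name arrays and pair none of them. The exposed arrays lie wholly above the controls for Sesn2 and Cpt1c, whereas the groups overlap for the other 8 genes.

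**Figure D2:**
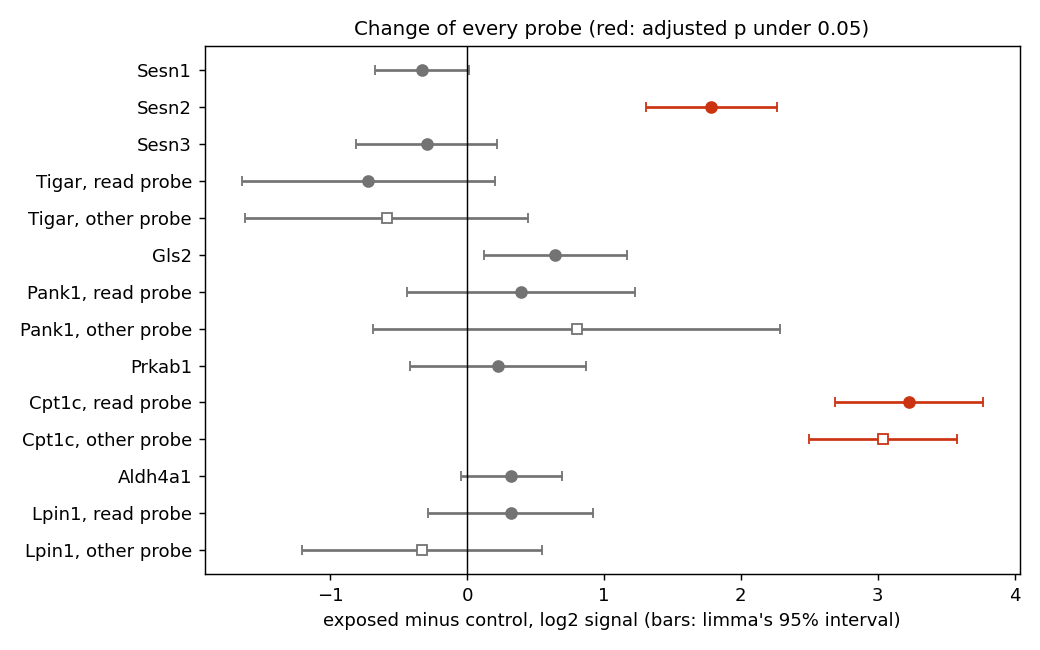
Difference between exposed and control arrays in log2 signal for each of the 14 probes, with limma's 95% interval; filled circles are main probes, open squares the second probe of a gene, and red marks an adjusted p under 0.05. Both Cpt1c probes and Sesn2 lie above 1, and the other 11 probes lie between -0.72 and 0.80. The value of 0.80 is that of the second Pank1 probe, which was well above background on S589 alone.

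Sesn2 encodes a stress-induced sestrin that binds the GATOR2 complex, through which leucine reaches mTORC1. Its only probe, A_51_P161354, lies on chromosome 4 at 132048858 to 132048917 (mm9, minus strand). The log2 signal of Sesn2 was 11.36, 11.22, 11.36 and 11.18 on controls 1 to 4, and 13.65, 12.82, 12.85 and 12.94 on exposed arrays S539, S588, S589 and S590. The controls lay close together (11.28 ± 0.095, SD, n = 4), and every exposed array was well above the highest of them, with S539 apart from the other 3. The change of Sesn2 was 1.78 ± 0.21 on the log2 scale (SE), or 3.44-fold with a 95% interval from 2.47 to 4.80, at a limma adjusted p of 0.0142. The exact permutation test over the 70 assignments of arrays gave p = 0.0286, the smallest it can give. Its call did not hold under every alternative. Without the 2 thymocyte-rich controls the change of Sesn2 was 1.79 with a limma adjusted p of 0.118, without control 2 alone the adjusted p was 0.0607, and without S590 it was 0.0577.

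Sesn1 and Sesn3, the other members of the sestrin family, were not called and lay on the other side of 0. Sesn1, the family member known for longest as a p53 target, was 12.45, 12.64, 12.81 and 12.59 on controls 1 to 4 and 12.13, 12.22, 12.28 and 12.54 on S539, S588, S589 and S590. All of the exposed arrays but S590 lay below every control. Its change was -0.33 ± 0.15 on the log2 scale (SE, n = 4 per group; limma adjusted p = 0.426; exact permutation p = 0.0571). Sesn3, a sestrin that FoxO factors are known to induce, ran from 10.50 to 11.08 on the controls and from 9.90 to 10.67 on the exposed arrays. Its change was -0.29 ± 0.22 (SE, n = 4 per group; limma adjusted p = 0.617), with S588 alone below all controls.

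The 3 sestrins were then compared with one another, as the difference of their changes. This was done for 12 pairs in all of a gene of the group and a relative, with two-sided exact permutation tests adjusted over the 12. The change of Sesn2 exceeded that of Sesn1 by 2.11 and that of Sesn3 by 2.08 on the log2 scale, each at the smallest exact permutation p of 0.0286, which after adjustment was 0.0857 and did not pass 0.05. Sesn1 and Sesn3 differed in their changes by -0.04, well within the spread between arrays.

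Cpt1c encodes the brain type of carnitine palmitoyltransferase 1, a protein of the endoplasmic reticulum that binds malonyl-CoA and has little of the acyl transfer activity of its relatives. It gave the largest change of the group. Its main probe, A_52_P269942 on chromosome 7 at 52215426 to 52215485 (mm9, minus strand), read 7.74, 8.24, 8.50 and 8.36 on controls 1 to 4, and 11.89, 11.11, 11.27 and 11.47 on S539, S588, S589 and S590. The lowest exposed array was far above the highest control, and both groups had a similar spread (8.21 ± 0.33 and 11.44 ± 0.34, SD, n = 4 each). The change of Cpt1c was 3.22 ± 0.23 on the log2 scale (SE), or 9.35-fold with a 95% interval from 6.43 to 13.6, at a limma adjusted p of 0.00289. The second probe, at 52216890 to 52216949, gave 7.26 to 8.05 on the controls and 10.60 to 11.23 on the exposed arrays, a change of 3.04 ± 0.23 (SE; limma adjusted p = 0.0032). The exact permutation p was 0.0286 for both probes, the smallest possible, and the change at the main probe exceeded that at the second by 0.18 (exact permutation p = 0.0857, 0.229 adjusted over the 4 genes with 2 probes). Without the 2 thymocyte-rich controls the change of Cpt1c at the main probe was 3.00, at a limma adjusted p of 0.0323.

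The relatives that carry out the entry of fatty acids into mitochondria were not called. Cpt1a, the liver type, changed by 0.12 ± 0.22 (SE; limma adjusted p = 0.848), and Cpt1b, the muscle type, by 0.28 ± 0.41 (SE; limma adjusted p = 0.805). The change of Cpt1c exceeded that of Cpt1a by 3.11 and that of Cpt1b by 2.95 on the log2 scale (exact permutation p = 0.0286 each, the smallest possible, and 0.0857 adjusted over the 12 pairs). As Cpt1c is known from neurons, 8 neuronal markers were read beside it: none was called, and their summed signal was 16089 to 36712 on the controls and 23706 to 74734 on the exposed arrays, which overlap. That sum was mostly 1 gene, Snap25, at a log2 signal of 16.16 on S588. As a mean over the 8 markers of log2 signals centred on each gene's mean, the neuronal score was -0.31 to 0.23 on the controls and 0.45, -0.51, 0.11 and 0.09 on S539, S588, S589 and S590. S539 was highest and S588 lowest of the exposed arrays both in this score and at the main Cpt1c probe. At the second Cpt1c probe S589 was lowest, at 10.60, and S588 read 10.65. Among the controls, control 3 was lowest in the score, at -0.31, and highest at the main Cpt1c probe, at 8.50. The part of neuronal RNA in the change of Cpt1c was not tested.

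**Figure D3:**
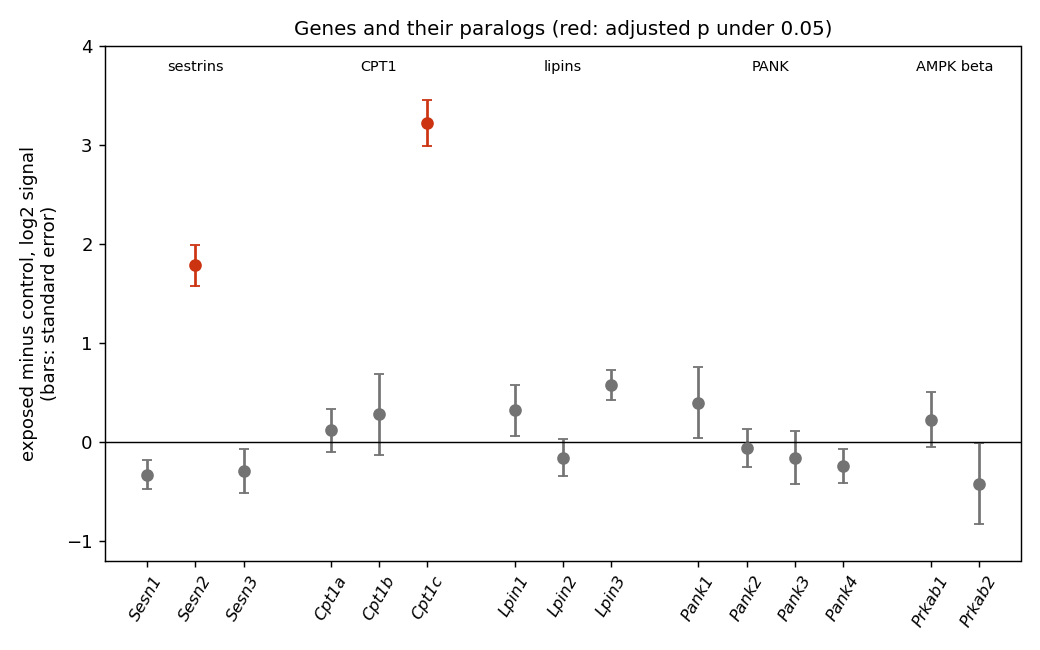
Change between exposed and control arrays in log2 signal (bars, SE from limma) for the genes of 5 families, with red for an adjusted p under 0.05. Within the sestrins only Sesn2, at 1.78, and within the CPT1 family only Cpt1c, at 3.22, are called, and the 13 other genes lie between -0.42 and 0.57.

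TIGAR removes a phosphate from fructose 2,6-bisphosphate, which slows glycolysis and directs glucose into the pentose phosphate pathway. Its main probe lies on chromosome 6 at 127035231 to 127035290 (mm9, minus strand). The log2 signal of TIGAR was 12.30, 11.56, 11.36 and 12.82 on controls 1 to 4 and 10.82, 11.50, 10.84 and 11.99 on S539, S588, S589 and S590. S539 and S589 lay below every control, while S588 and S590 lay among them. The change was -0.72 ± 0.40 on the log2 scale (SE, n = 4 per group), with a 95% interval from -1.65 to 0.21, a limma adjusted p of 0.505 and an exact permutation p of 0.143. The second probe changed by -0.59 ± 0.45 (SE; limma adjusted p = 0.618).

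The signal of TIGAR moved with skeletal muscle RNA in the samples. The summed signal of 10 muscle markers was 2254420, 1697520, 1332380 and 2679680 on controls 1 to 4 and 630786, 1538800, 651447 and 2131030 on S539, S588, S589 and S590. The main TIGAR probe put the 8 arrays in the same order as this sum. All 10 markers changed by less than 0 and none was called, and every marker was well above background on all arrays. With the mean muscle marker signal as a covariate, added after the data were seen, the change of TIGAR was -0.05 (limma adjusted p = 0.964), and that of Sesn2 was 1.62 (limma adjusted p = 0.106). As a mean of centred log2 signals, this muscle score was -0.14 to 1.11 on the controls and -1.39 to 0.67 on the exposed arrays. The covariate thus shares part of its variation with exposure, and the part of muscle RNA in the change of TIGAR was not tested. In pieces of tissue such as these, fewer cells of a type and less RNA per cell cannot be told apart.

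Gls2, the liver-type glutaminase, turns glutamine into glutamate in mitochondria. Its probe on chromosome 10 at 127646830 to 127646889 (mm9, plus strand) read 7.68, 7.69, 7.87 and 7.45 on controls 1 to 4 and 8.75, 7.77, 8.24 and 8.52 on S539, S588, S589 and S590. All exposed arrays but S588 were above every control. The change was 0.64 ± 0.23 on the log2 scale (SE, n = 4 per group), with a 95% interval from 0.12 to 1.17, an unadjusted limma p of 0.0216, an adjusted p of 0.315 and an exact permutation p of 0.0571.

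Aldh4a1 encodes the mitochondrial dehydrogenase that completes the breakdown of proline to glutamate. Its log2 signal ran from 13.33 to 13.52 on the controls and was 13.97, 13.58, 13.93 and 13.46 on S539, S588, S589 and S590, so that all exposed arrays but S590 lay above the controls. The change was 0.32 ± 0.16 (SE, n = 4 per group; limma adjusted p = 0.461; exact permutation p = 0.0571). With the muscle marker covariate it was 0.10.

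Pank1 encodes a pantothenate kinase, the first enzyme of coenzyme A synthesis. Its main probe, on chromosome 19 at 34885801 to 34885860 (mm9, minus strand), read 9.24, 9.65, 9.50 and 10.02 on controls 1 to 4 and 9.31, 10.61, 10.62 and 9.46 on S539, S588, S589 and S590. S588 and S589 were above every control, and S539 and S590 were not. The change was 0.40 ± 0.36 (SE, n = 4 per group; limma adjusted p = 0.678). The same 2 arrays had the highest summed signal of 9 adipocyte markers, 598552 and 845839, against 302064 to 472739 on the other 6 arrays, and with an adipocyte covariate, added after the data were seen, the change of Pank1 was 0.16 (limma adjusted p = 0.853). Another probe under this gene name was designed from a cDNA clone on the opposite strand, at 34955719 to 34955778, and was well above background on S589 alone. It was counted among the 14 probes and the 4 genes with 2 probes, but the change of Pank1 was not read from it.

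Prkab1 and Lpin1 spread more widely among the controls than among the exposed arrays. Prkab1, the beta 1 subunit of AMPK, was 7.88, 8.72, 9.21 and 8.93 on controls 1 to 4 and 8.77 to 9.07 on the exposed arrays. Control 1 was low, and without it the change of 0.22 ± 0.28 (SE; limma adjusted p = 0.764) became -0.044. Lpin1, a phosphatidate phosphatase of glycerolipid synthesis and a partner of PPAR alpha, was 10.96, 10.64, 10.53 and 11.65 on controls 1 to 4 and 10.99 to 11.45 on the exposed arrays, within the range of the controls. Its change was 0.32 ± 0.26 (SE, n = 4 per group; limma adjusted p = 0.643) at the main probe and -0.33 ± 0.38 (limma adjusted p = 0.742) at a second, dimmer probe that was not above background on control 3. The changes at the Lpin1 probes differed by 0.65 (exact permutation p = 0.114, 0.229 adjusted over the 4 genes).

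The relatives of these enzymes were read as well. Pank2, Pank3 and Pank4 changed by -0.06, -0.16 and -0.24, and the AMPK subunit Prkab2 by -0.42 (limma adjusted p = 0.696). Prkab2 was lowest on S539 and S589, at 10.59 and 10.72, the arrays lowest in muscle markers, whose part in it was not tested. Among the lipins, Lpin2 changed by -0.16 and Lpin3 by 0.57 (limma adjusted p = 0.185), and the groups did not overlap for Lpin3. No difference in change between these and their relative in the group had an exact permutation p below 0.171.

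**Figure D4:**
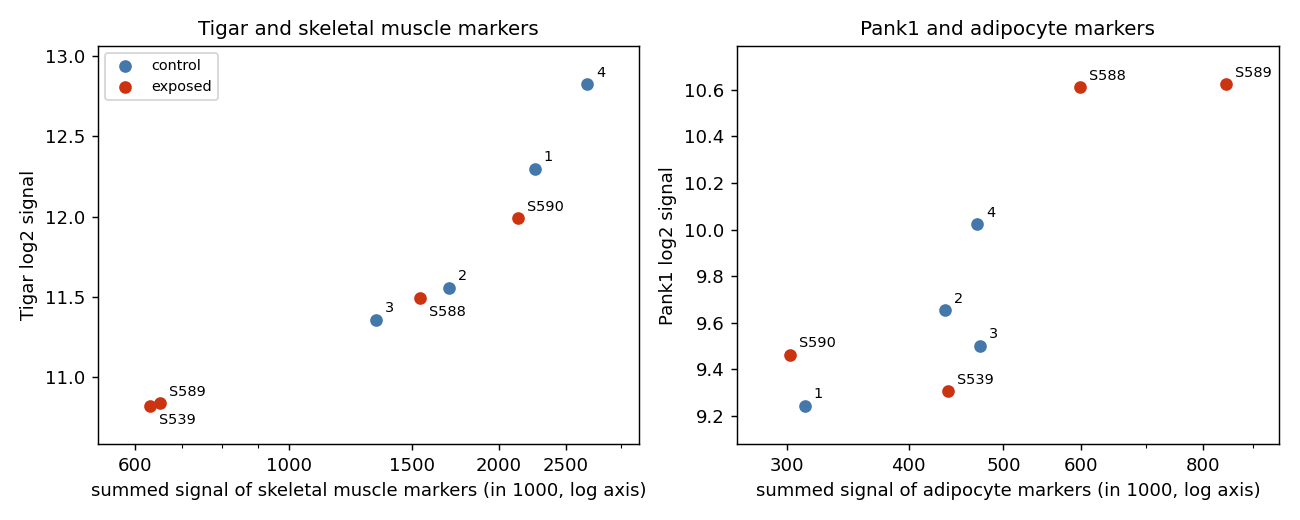
Log2 signal of the main probe of Tigar against the summed signal of 10 skeletal muscle markers (left), and of Pank1 against that of 9 adipocyte markers (right), for the 4 control (blue) and 4 exposed (red) arrays, with log horizontal axes. Tigar puts the arrays in the same order as the muscle sum, and S588 and S589 are highest for both Pank1 and the adipocyte sum.

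To see whether the pathways around the group changed with it, 12 lists with 175 other genes were read in the same fit. Of the 175 genes, 7 were called, all higher, which is 4% against 0.904% of all genes called higher. The median change of the 175 was 0.10. As the lists were chosen with earlier results of these data known, these shares are a description and no test. The calls depended on single arrays, with 3 left when control 2, S589 or S590 was dropped and 4 without S539 or S588. Without the 2 thymocyte-rich controls 2 of the 175 were called, and with the muscle covariate 1.

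On the sestrin side, 1 of 24 genes of AMPK, the GATOR complexes and mTORC1 was called. This was Ddit4 (REDD1), an inhibitor of mTORC1, which was 12.79 to 13.06 on the controls and 15.12 to 15.49 on the exposed arrays, a change of 2.34 ± 0.14 (SE; limma adjusted p = 0.0013). The kinase and complex subunits of this list were not called, and its median change was -0.01. None of 10 genes of the peroxiredoxins and their Nrf2 branch was called; the widest change was that of Prdx6, a peroxiredoxin, at 1.14 (limma adjusted p = 0.0615), and the groups did not overlap.

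None of the enzyme lists held a called gene. Among 22 genes of glycolysis and the pentose phosphate pathway the median change was -0.11, and the widest was -1.03 for Pfkm, the muscle phosphofructokinase (limma adjusted p = 0.553). The summed signal of this list was lowest on S539 and S589, at 712251 and 803545, the arrays lowest in muscle markers, whose part in it was not tested. Among 14 genes of glutamine and glutamate the widest was -0.85 for Got1, an aspartate aminotransferase (limma adjusted p = 0.456). Got1, too, was lowest on S539 and S589, at 13.16 and 13.13, and the part of muscle RNA in it was not tested. Among 7 genes of proline the widest was -0.98 for Aldh18a1, which starts proline synthesis (limma adjusted p = 0.138). The 20 genes of fatty acid oxidation had a median change of 0.20, with 15 above 0, and the widest was 0.68 for the acyl-CoA dehydrogenase Acad11 (limma adjusted p = 0.191). Their summed signal was highest on S588 and S589, at 536385 and 682890 against 345725 to 485546 on the other 6 arrays, and these are the arrays highest in adipocyte markers, whose part in the median was not tested. For 14 genes of glycerolipid synthesis and 9 of coenzyme A synthesis the medians were 0.05 and 0.06, and the widest changes those of Dgat1, which makes triglyceride, at 0.62 (limma adjusted p = 0.455) and of the pantothenate transporter Slc5a6 at 0.57 (limma adjusted p = 0.139). The glycerolipid sum, too, was highest on S588 and S589, at 215811 and 261221 against 144473 to 181789 on the other arrays.

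The list of 23 other p53 targets, most of them with metabolic roles, was chosen with earlier results of these data known. Its median change was 0.24, and 16 of its 23 genes changed by more than 0. The groups did not overlap for 8 of the 23, beside 11.7% of all genes. Of the 23 genes, 5 were called, all higher, beside 0.904% of all genes called higher. Beside Ddit4, these were Polk at 2.14 (limma adjusted p = 0.0071), Ephx1 at 1.90 (limma adjusted p = 0.0151), Acer2 at 1.74 (limma adjusted p = 0.0213) and Gdf15 at 4.23 (limma adjusted p = 0.0363). Polk is a DNA polymerase for damaged templates and no metabolic enzyme, Ephx1 opens epoxides of foreign compounds, Acer2 cleaves ceramide, and Gdf15 is a secreted stress hormone. The 18 genes that were not called included the mitochondrial p53 targets Fdxr at 0.19 and Sco2 at 0.24, and the ribonucleotide reductase subunit Rrm2b at -0.01 (limma adjusted p = 0.624, 0.536 and 0.989). They also included Abca1 at 1.05, Fuca1 at 0.75 and Acad11 at 0.68 (limma adjusted p = 0.107, 0.143 and 0.191), whose groups did not overlap. The widest fall was that of Gamt, at -0.80 (limma adjusted p = 0.327). These uncalled genes were picked out after their values were seen.

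Other regulators of the group were covered by 3 lists, whose calls stand beside 0.904% of all genes called higher. Of 15 targets of FoxO and PPAR alpha in fasting, none was called, and the median change was 0.25. Of 10 glucocorticoid targets, 2 were called, Ddit4 and the clock gene Per1, at 2.15 (limma adjusted p = 0.0258). All 10 changed by more than 0, with a median of 1.11, and the groups did not overlap for 7 of them, beside 11.7% of all genes. Of 16 clock genes, Per1 and Per2 were called, Per2 at 2.23 (limma adjusted p = 0.0045). The part of these regulators in the changes of Sesn2 and Cpt1c was not tested.

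**Figure D5:**
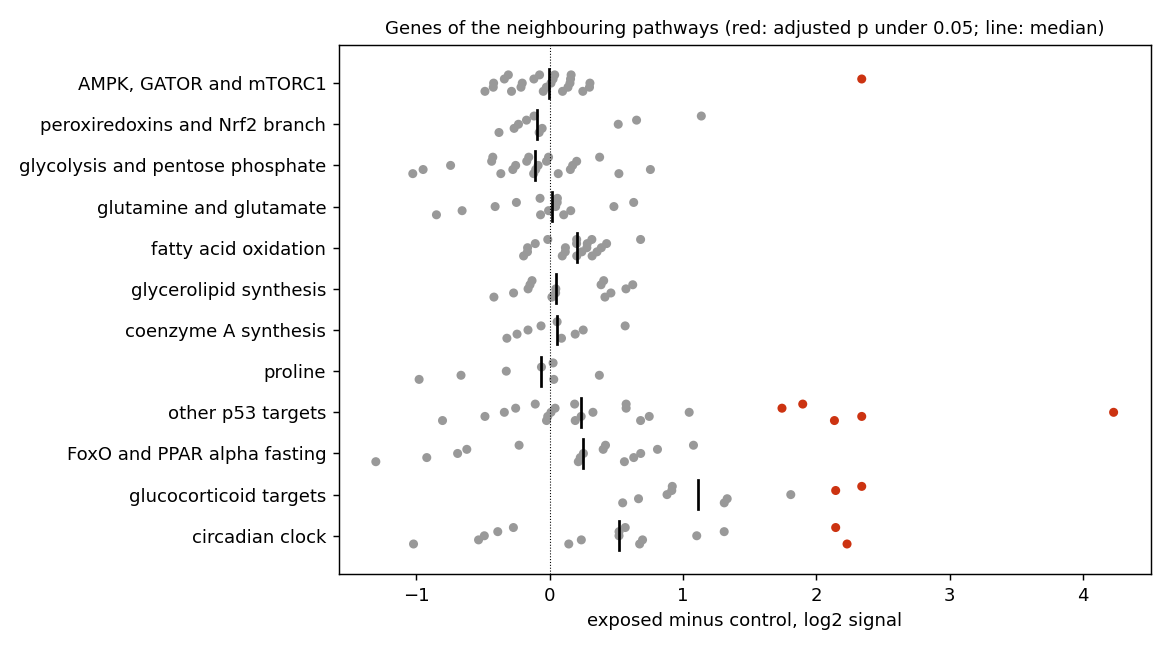
Change between exposed and control arrays in log2 signal for each gene of the 12 neighbouring lists, with the list median as a black line and red for an adjusted p under 0.05. Called genes stand only in the AMPK and mTORC1, other p53, glucocorticoid and clock lists, where Ddit4 is in 3 lists and Per1 in 2.

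Profiles were compared by the Euclidean distance of centred log2 signals over the 8 arrays. Outside the group, the genes nearest the called members were found among 13757 RefSeq genes whose log2 signal averaged 7 or more. For Sesn2 they were Ppp1r13l, Bbc3 and Inf2, at distances of 0.32, 0.35 and 0.35 log2 units and with changes of 1.99, 1.83 and 1.70. For Cpt1c they were Slc23a1, Celf5 and Zfp365, at distances of 0.59, 0.66 and 0.68 and with changes of 3.33, 3.53 and 3.35. All 6 were called themselves. The distances are given as a description, since any gene that changed as much lies close to these profiles.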

How the data were processed

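Thyroid RNA of 4 exposed and 4 control mice was hybridised to 8 one-colour Agilent arrays, 1 array for each thyroid, and groups were taken from the sample labels. The authors deposited scanner output with the intensity of each spot, made by Feature Extraction 10.7.3.1, and a table of log2 values for 59305 spots, which matched quantile-normalized median spot signals within 0.0378. Their methods give limma, quantile normalization between arrays and an adjusted p of 0.05. Here the log2 of the background-subtracted intensity was quantile-normalized without control spots, the spots of a probe were averaged, and groups were compared by lmFit and eBayes (R 4.3.3, limma 3.58.1) over 55681 probes, two-sided, with Benjamini-Hochberg adjustment; ± is SE or SD as stated. The procedure was tested on simulated data.

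Each gene was read by its RefSeq probe of highest mean signal. Probes are placed as the array files give them, in mm9, and whether a probe lies in a coding or untranslated exon was not analysed here. Names and promoters came from RefSeq on GRCm38.p6. Exact permutation tests enumerated all 70 ways to assign the arrays, so that p cannot fall below 0.0286, and precision is limited by how few arrays there are. The genes of the group and the lists were chosen with earlier results of these data known. Named were all members, every called gene of a list up to 4, or else the list's widest change at a mean log2 signal of at least 7, and the 3 nearest profiles of a called member. A few items are not reported here. Gdf15 and the uncalled genes named from its list were named beyond this rule after their values were seen. Alternatives covered scaling to the 75th percentile, normexp (offset 50), no background correction, the deposited log2 values, array weights, a variance trend, dim probes left out, the methods' t-test, outlier spots left out, any probe of a gene, and each array left out. Muscle and adipocyte covariates, and leaving out controls 1 and 2, were added after seeing the data.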

Additional observations from a re-analysis of the deposited data

Results flagged for a closer look

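In 4 of 28 groups of 4 arrays, 1 array lay far from the other 3 by Dixon's test, where chance gives about 1.4 (1 in 20). Sesn2 was 13.65 on S539, against 12.82 to 12.94 on the other exposed arrays, and without S539 its change was 1.59 (limma adjusted p = 0.0151). Sesn3 was 9.90 on S588, against 10.54 to 10.67 on the other exposed arrays. The clone-derived probe under the name Pank1 was 4.10 on control 2, against 2.90 to 2.98 on the other controls, none of them above background. The second Lpin1 probe was 6.45 on S590, against 5.80 to 5.83 on the other exposed arrays.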

How the results depend on the processing

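Under 20 alternatives, of which 3 were added after seeing the data, Cpt1c was called at both probes each time, with a change of 2.91 to 3.33 at the main probe and an adjusted p of at most 0.0362. Sesn2 kept its direction, at 1.59 to 1.87, and was called in 16 of the 20, with an adjusted p from 0.0014 to 0.118. No probe of the other 8 genes was called under any of them. Leaving out each array in turn gave 2 to 3 probes of the group called higher and 0 called lower, 1 to 2 of its genes, and 3 to 7 of the 175 genes of the lists. With the muscle covariate 1 gene of the group and 1 of the lists were called, with the adipocyte covariate 2 and 4, without controls 1 and 2 together 1 and 2, and with the deposited values 2 and 13. Beside fewer arrays or degrees of freedom, the cause of these shifts was not tested. Prkab1 ranged from -0.044 (without control 1) to 0.40 with each array left out, and was -0.16 without controls 1 and 2, and with the muscle covariate the second probes of TIGAR and Lpin1 turned to 0.20 and 0.12. Scaling to the 75th percentile moved the median of all probes from 0.01 to 0.16 and turned no gene of the group. Calls over the whole array, 327 higher and 108 lower, ranged from 49 (muscle covariate) to 648 (no background correction) for higher and from 7 (muscle covariate) to 375 (array weights) for lower. No paired analysis was possible because no number occurs in both groups, the control labels running from 1 to 4 and the exposed animals bearing numbers of their own. Dim probes, such as the second ones of Pank1 and Lpin1, are limited by background.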
